A study of Mus musculus with 2 samples.

Results

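The genes described here are the chemokine and interleukin ligand genes of the mouse, the secreted proteins with which immune and tissue cells recruit and instruct each other. Members were all protein-coding genes on the 19 autosomes with a symbol of the form Ccl or Cxcl followed by a number, or Il followed by a number and at most 1 letter up to f, which leaves out the receptors. The rule found 70 genes of 20665, and 69 of them (24 Ccl, 12 Cxcl and 33 Il genes) could be placed in bins of 50 kb, where they occupied 60 loci of 16822. A locus is the set of bins that a gene overlaps, and 9 loci were shared by more than 1 member. The remaining gene, Ccl21c, is listed in the first 3 Mb of chromosome 4, where both libraries had 0 contacts. The rule itself uses no value measured in these libraries, though the members were chosen with earlier results of these data known.

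The contacts came from Foxa2 HiChIP of liver, with 1 library from wildtype mice given the FXR agonist GW4064 once by oral gavage and 1 from wildtype mice given its propylene glycol and Tween 80 vehicle, both collected after 4 h. HiChIP ligates DNA ends that lie close together in the nucleus and then recovers those bound by a chosen protein, here Foxa2, a pioneer transcription factor that opens chromatin in hepatocytes. The question named by the study's title is how Foxa2 takes part in changes of chromatin conformation when FXR, the bile acid receptor, is activated. The labels state neither the number, age or sex of the mice nor whether livers were pooled. Each group held 1 library, so there are no replicates, no test of the treatment was possible, and every difference compares these libraries and not the conditions. The GW4064 library held 29003442 contacts and the vehicle library 22686004.

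Chemokines are small proteins that bind heparan sulfate and steer leukocytes through G protein-coupled receptors, and many of their genes arose by tandem duplication and still lie side by side. Interleukins signal mainly through cytokine receptors and Janus kinases, or, in the IL-1 and IL-17 families, through adaptors that lead to NF-kB. In liver they are made largely by Kupffer cells, lymphocytes, endothelial and stellate cells, while hepatocytes make several of them after an inflammatory stimulus and answer to IL-6 with the acute phase response. A count of contacts in whole liver mixes all these cells, and a contact is not a measure of transcription.

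Promoter windows show what the bins of the inducible members contain, since the precipitated factor has a known motif. RefSeq windows of the GRCm38.p6 assembly, the 250 bases before the start site, matched 50 of the 69 placed members in 62 windows. The first motif searched was the Foxa motif, as TGTTTAC or TGTTTGC, and the other was an NF-kB motif, as GGGA, any 2 bases and then TTCC, each on both strands and with no overlap between the Foxa and the NF-kB matches in the windows shown. The Foxa letters were in windows of 2 of the 50 members (4.0%), Il20 and Il33, against 1230 of 16457 protein-coding genes (7.47%). The NF-kB letters were in windows of 7 of the 50 (14.0%), Ccl1, Cxcl1, Cxcl2, Cxcl3, Cxcl10, Il6 and Il16, against 219 of 16457 (1.33%). A match is a run of letters and not a site shown to be bound. Some windows are written here 5′ to 3′ on the gene's strand. Cxcl1, Cxcl2 and Cxcl3, neutrophil chemokines of chromosome 5, the interferon-induced Cxcl10 and the acute phase inducer Il6 share the NF-kB letters. The alarmin Il33 is 1 of the 2 with the Foxa letters. Cxcl1, Cxcl2 and Cxcl3 lie in 1 cluster and hold the same letters, so they are not separate cases among the 7. The window of Cxcl15, in the same cluster, held 0 matches. Capitals mark the matches.
Cxcl1, chr5:90890995-90891244, plus strand: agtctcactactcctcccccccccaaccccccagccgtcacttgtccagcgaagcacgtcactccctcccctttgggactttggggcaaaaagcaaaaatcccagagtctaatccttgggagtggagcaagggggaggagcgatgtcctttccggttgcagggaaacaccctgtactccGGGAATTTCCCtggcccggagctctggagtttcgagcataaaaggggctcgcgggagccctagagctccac
Cxcl2, chr5:90903649-90903898, plus strand: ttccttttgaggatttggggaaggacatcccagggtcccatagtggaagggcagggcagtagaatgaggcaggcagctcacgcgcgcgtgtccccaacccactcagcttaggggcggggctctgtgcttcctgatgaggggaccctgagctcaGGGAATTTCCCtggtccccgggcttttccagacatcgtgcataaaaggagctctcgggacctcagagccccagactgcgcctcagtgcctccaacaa
Cxcl3, chr5:90785851-90786100, plus strand: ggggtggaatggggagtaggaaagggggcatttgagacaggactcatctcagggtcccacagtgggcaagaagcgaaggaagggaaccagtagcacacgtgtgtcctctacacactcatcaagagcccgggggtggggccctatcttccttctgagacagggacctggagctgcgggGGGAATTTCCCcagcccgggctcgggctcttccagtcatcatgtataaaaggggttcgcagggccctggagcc
Cxcl10, chr5:92348890-92349139, minus strand: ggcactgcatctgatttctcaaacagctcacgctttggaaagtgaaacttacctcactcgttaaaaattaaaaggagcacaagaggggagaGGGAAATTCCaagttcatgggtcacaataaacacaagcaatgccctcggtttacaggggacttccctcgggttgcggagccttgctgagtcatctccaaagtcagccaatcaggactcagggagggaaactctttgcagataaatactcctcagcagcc
Il6, chr5:30012864-30013113, plus strand: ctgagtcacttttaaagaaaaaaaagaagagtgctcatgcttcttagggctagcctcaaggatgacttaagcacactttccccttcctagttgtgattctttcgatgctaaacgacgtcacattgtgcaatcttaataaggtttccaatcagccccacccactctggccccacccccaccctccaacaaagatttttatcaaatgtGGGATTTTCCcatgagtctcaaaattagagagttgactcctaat
Il33, chr19:29924863-29925112, plus strand: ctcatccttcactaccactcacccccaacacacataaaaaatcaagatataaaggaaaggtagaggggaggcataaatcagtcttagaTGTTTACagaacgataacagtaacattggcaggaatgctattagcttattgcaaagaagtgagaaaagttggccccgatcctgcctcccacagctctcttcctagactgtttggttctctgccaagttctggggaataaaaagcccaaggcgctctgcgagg
The match began 71 bases before the start in Cxcl1, 97 in Cxcl2 and 73 in Cxcl3, where the same letters GGGAATTTCCC hold an overlapping match on each strand. It began 159 bases before the start in Cxcl10 and 44 in Il6, and the Foxa letters of Il33 began 162 bases before the start. In bins of 50 kb a contact cannot be assigned to any of these windows.

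Local contacts, those of a locus with other bins of its chromosome at most 1 Mb away, were called lower in the GW4064 library at some members and higher at none, a share of lower calls below that of protein-coding genes in general. Of the 60 loci, 56 had at least 100 local contacts over both libraries. Over those 56 the counts ran between 69 and 1141 with a median of 244.5 in the GW4064 library, and between 66 and 753 with a median of 194 in the vehicle library. After scaling to equal totals of local contacts, a locus was called lower or higher when the higher library exceeded the lower by at least 25% and the exact 95% interval of the ratio excluded 1. That interval covers counting error only. By this rule 12 of 56 member loci (21.4%) were called lower in the GW4064 library, 0 were called higher and 44 were neither, while 29.2% of all protein-coding loci were called lower and 1.37% higher. The median log2 ratio was -0.18 over the members and -0.15 over the 16527 protein-coding loci with enough contacts.

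The scale chosen sets part of these signs. Scaling to equal total contacts of the libraries raised every log2 ratio by 0.15, so that ratios between -0.15 and 0 would turn positive. The calls then became 5 lower (Il17c, Il25, Ccl17, Ccl27a and Il24) and 3 higher (Il7, Il17a and Il17f), where 15.7% of all protein-coding loci were called lower and 8.14% higher on that scale. With the interval alone and no fold, 19 members were lower and 1 higher, where 39.7% of all loci were lower and 5.55% higher. On either scale the member median lay 0.03 below that of all loci. The 12 loci called lower on the main scale were Il24, Il23a, Il12b, Il25, Il17b, Il11, Il27, Il17c, Cxcl12, Cxcl17, Ccl17 and Ccl27a. At a threshold of 1.5-fold 4 members were called lower and 0 higher, where 9.48% of all loci were called lower and 0.109% higher. The 12 loci comprised 8 of 31 interleukin loci, 2 of 10 Cxcl loci and 2 of 15 Ccl loci. On the main scale 29.2% of all protein-coding loci were called lower. The difference between the families was not tested.

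**Figure D1:**
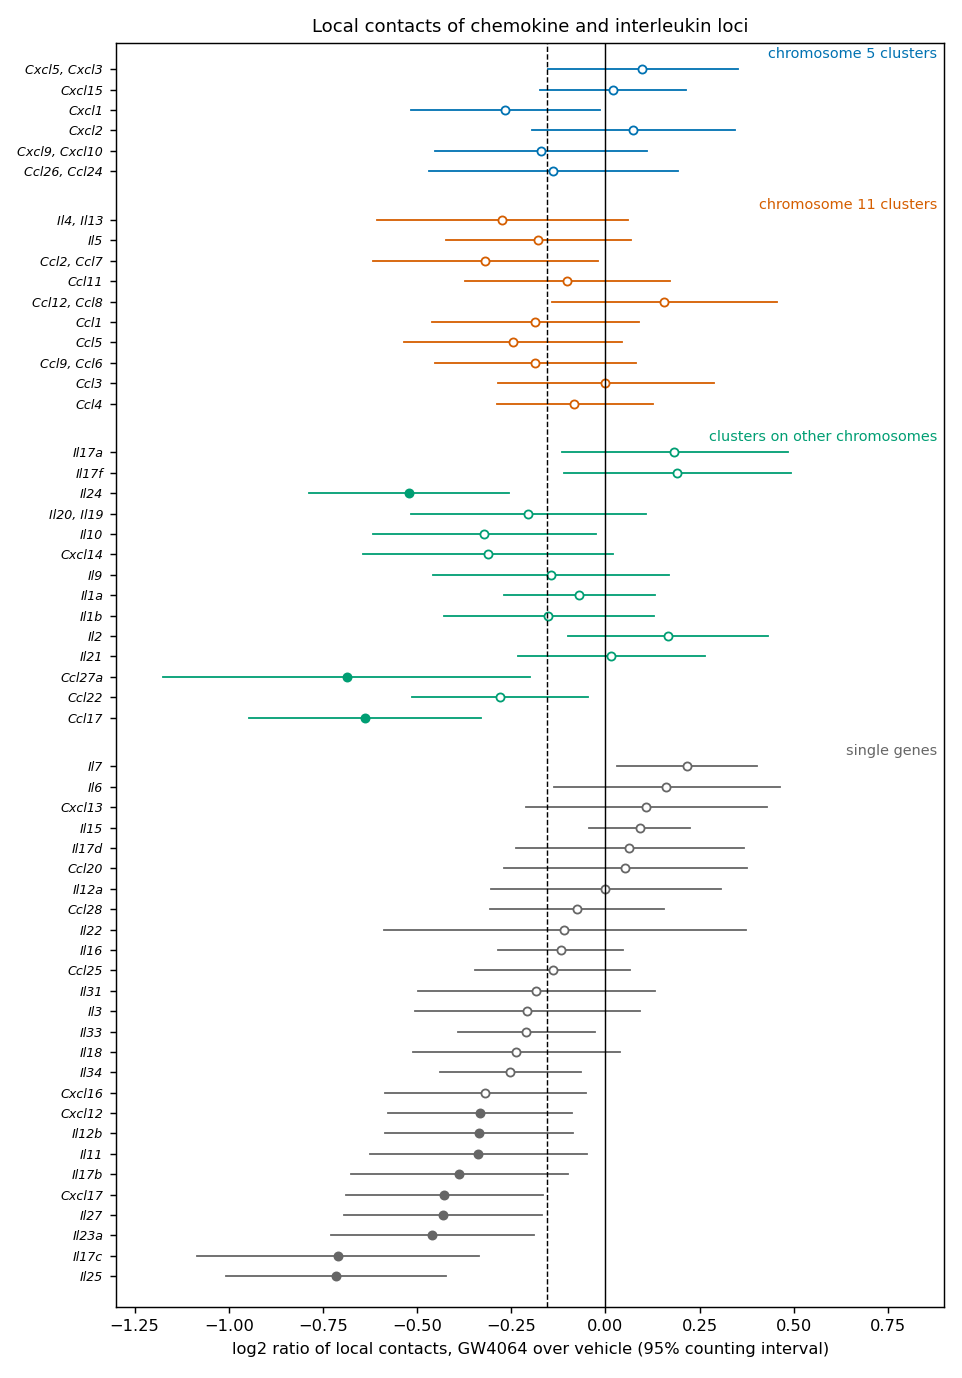
Log2 ratio of local contacts, GW4064 over vehicle, for the 56 member loci with at least 100 local contacts, grouped by cluster. Points are loci, bars are exact 95% counting intervals, filled points were called lower, the solid line is a ratio of 1 and the dashed line is the median of all protein-coding loci (-0.15). The 6 loci of the chromosome 5 clusters and the 10 of the chromosome 11 clusters have no filled point. Among all protein-coding loci 29.2% were called lower.

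The neutrophil chemokine cluster on chromosome 5 had no locus called, and its distance classes went in opposite directions. In 4 adjacent bins it holds Cxcl5, Cxcl3, Cxcl1 and Cxcl2, ligands of the receptor Cxcr2 that draw neutrophils into inflamed tissue, and Cxcl15, a lung chemokine. Together these bins had 968 local contacts in the GW4064 library and 721 in the vehicle library, a log2 ratio of -0.08 (95% interval -0.22 to 0.06). At 50 kb they had 227 contacts in the GW4064 library and 132 in the vehicle library (0.32, 0.00 to 0.64), but at 550 kb to 1 Mb 157 in the GW4064 library and 163 in the vehicle library (-0.54, -0.86 to -0.21). The intervals of the other 6 classes spanned 0. Within the cluster, Cxcl5 and Cxcl3 shared a bin with 332 local contacts in the GW4064 library and 218 in the vehicle library (log2 ratio 0.10, -0.15 to 0.35). Cxcl2 had 289 in the GW4064 library and 193 in the vehicle library (0.07, -0.19 to 0.34). Cxcl1, which lies between them, had 290 in the GW4064 library and 245 in the vehicle library (-0.27, -0.52 to -0.01), and its interval alone excluded 0 while its fold stayed under the call rule. The bin of Cxcl5 and Cxcl3 also holds Ppbp and Pf4, the platelet chemokine genes that the symbol rule leaves out.

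The other chromosome 5 clusters were likewise neither lower nor higher. Cxcl9 and Cxcl10, interferon-induced ligands of Cxcr3 that recruit T cells, share 1 bin, with 240 local contacts in the GW4064 library and 190 in the vehicle library (log2 ratio -0.17, -0.45 to 0.11). Ccl24, a ligand of the eosinophil receptor Ccr3, and Ccl26, whose human counterpart binds that receptor too, share 1 bin with 177 in the GW4064 library and 137 in the vehicle library (-0.14, -0.47 to 0.19). Over the 6 loci of the chromosome 5 clusters the median log2 ratio was -0.06, with 3 loci below 0 and 3 above it. Of these 6 loci 0 were called, where 29.2% of all protein-coding loci were called lower and 1.37% higher.

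The chromosome 11 clusters hold the monocyte and macrophage chemokines and the type 2 cytokine genes, and 0 of their 10 loci were called lower or higher. Among all protein-coding loci 29.2% were called lower and 1.37% higher. A contact between neighbouring loci counts for both, so the loci of a cluster are not separate values. The cluster of Ccl2, Ccl7, Ccl11, Ccl12, Ccl8 and Ccl1 had 727 local contacts in the GW4064 library and 554 in the vehicle library (log2 ratio -0.12, -0.28 to 0.04). Ccl2, the main monocyte attractant, and its neighbour Ccl7 share a bin with 202 in the GW4064 library and 177 in the vehicle library (-0.32, -0.62 to -0.02). Ccl12 and Ccl8, 100 kb further on, had 244 in the GW4064 library and 154 in the vehicle library (0.15, -0.14 to 0.46), so neighbouring bins of 1 cluster lay on both sides of 0 with overlapping intervals. The cluster of Ccl5, Ccl9, Ccl6, Ccl3 and Ccl4 had 796 local contacts in the GW4064 library and 631 in the vehicle library (-0.17, -0.33 to -0.02). Ccl5, which attracts T cells and monocytes, had 222 in the GW4064 library and 185 in the vehicle library (-0.25, -0.53 to 0.04). Ccl3, a chemokine made by macrophages, had 249 in the GW4064 library and 175 in the vehicle library (0.00, -0.29 to 0.29). Ccl9 and Ccl6, both macrophage chemokines, share a bin with 265 contacts in the GW4064 library and 212 in the vehicle library (-0.19, -0.45 to 0.08), and Ccl4, a chemokine of macrophages and T cells whose 2 bins include that of Ccl3, had 453 in the GW4064 library and 337 in the vehicle library (-0.08, -0.29 to 0.13).

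The type 2 cytokine genes form the remaining chromosome 11 cluster. Il4 and Il13, which drive IgE and alternative macrophage activation, share a bin with 166 local contacts in the GW4064 library and 141 in the vehicle library (log2 ratio -0.27, -0.61 to 0.06). Il5, the eosinophil growth factor, had 313 in the GW4064 library and 249 in the vehicle library (-0.18, -0.42 to 0.07). Taken over their 2 bins, the sums were 462 in the GW4064 library and 379 in the vehicle library (-0.22, -0.42 to -0.02), so the pooled interval excluded 0 where those of its loci did not.

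Among the remaining chemokines, 4 loci were called lower. Ccl17 and Ccl22, both ligands of Ccr4 made by macrophages and dendritic cells, are neighbours on chromosome 8. Ccl17 had 171 local contacts in the GW4064 library and 187 in the vehicle library, a log2 ratio of -0.64 (-0.95 to -0.33). Ccl22 had 334 in the GW4064 library and 285 in the vehicle library (-0.28, -0.51 to -0.05), which fell short of the call. Cxcl12, the stromal factor that retains stem cells and lymphocytes through Cxcr4, had 297 in the GW4064 library and 263 in the vehicle library (-0.33, -0.58 to -0.09). The others called lower were Cxcl17, a mucosal chemokine, with 254 in the GW4064 library and 240 in the vehicle library (-0.43, -0.69 to -0.17), and Ccl27a.

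Several chemokines of the liver or of lymphoid tissue showed no call. Cxcl16, a membrane-bound ligand that holds NKT cells in liver sinusoids through Cxcr6, had 251 local contacts in the GW4064 library and 220 in the vehicle library (log2 ratio -0.32, -0.59 to -0.05). Ccl20, which recruits Ccr6-bearing lymphocytes, had 202 in the GW4064 library and 137 in the vehicle library (0.05, -0.27 to 0.37). Cxcl13, the B cell attractant, had 210 in the GW4064 library and 137 in the vehicle library (0.11, -0.21 to 0.43), and the intervals of Ccl20 and Cxcl13 both span 0. Ccl25, the thymic and gut ligand of Ccr9, had 448 in the GW4064 library and 347 in the vehicle library (-0.14, -0.35 to 0.07). Cxcl14, an epithelial chemokine, had 165 in the GW4064 library and 144 in the vehicle library (-0.31, -0.64 to 0.02).

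Among the interleukins, the lowest ratios were those of Il25 and Il17c. Il25, an IL-17 family member that starts type 2 responses, had 183 local contacts in the GW4064 library and 211 in the vehicle library, a log2 ratio of -0.71 (-1.01 to -0.42). Il17c, an epithelial member of that family, had 114 in the GW4064 library and 131 in the vehicle library (-0.71, -1.08 to -0.34). Il17a and Il17f, the neutrophil-mobilising cytokines of Th17 cells, lie in adjacent bins of chromosome 1 and had the opposite sign. Il17a had 244 in the GW4064 library and 151 in the vehicle library (0.18, -0.12 to 0.49), and Il17f had 245 in the GW4064 library and 151 in the vehicle library (0.19, -0.11 to 0.49). Of the IL-12 family, Il23a, the subunit that defines IL-23, had 236 in the GW4064 library and 228 in the vehicle library (-0.46, -0.73 to -0.19). Il12b, the subunit shared by IL-12 and IL-23, had 284 in the GW4064 library and 252 in the vehicle library (-0.34, -0.59 to -0.09), and both were called lower. Il12a, the subunit that pairs with Il12b to form IL-12, had 219 in the GW4064 library and 154 in the vehicle library (0.00, -0.31 to 0.31) and was not. Il27, which restrains T cell responses, had 248 in the GW4064 library and 235 in the vehicle library (-0.43, -0.69 to -0.17). Il17b, another IL-17 family member, had 212 in the GW4064 library and 195 in the vehicle library (-0.39, -0.68 to -0.10), and Il11, which signals through the gp130 receptor chain like Il6, had 215 in the GW4064 library and 191 in the vehicle library (-0.34, -0.63 to -0.05), so Il27, Il17b and Il11 met the call rule.

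The IL-10 family lies mostly in 1 cluster on chromosome 1, the only cluster besides those of Ccl22 with Ccl17 and of Ccl27a whose summed log2 ratio was below -0.25. Its bins had 558 local contacts in the GW4064 library and 520 in the vehicle library (log2 ratio -0.41, -0.58 to -0.23). Il24, a cytokine of skin and other epithelia, had 237 in the GW4064 library and 239 in the vehicle library (-0.52, -0.79 to -0.26) and was called lower. Il10, the anti-inflammatory cytokine made by macrophages and regulatory T cells, had 205 in the GW4064 library and 180 in the vehicle library (-0.32, -0.62 to -0.02). Il22, which acts on hepatocytes and other epithelia, lies alone on chromosome 10 and had only 87 local contacts in the GW4064 library and 66 in the vehicle library (-0.11, -0.59 to 0.37).

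The IL-1 family lay near the middle of the distribution. Il1a, at 2 bins, had 483 local contacts in the GW4064 library and 356 in the vehicle library (log2 ratio -0.07, -0.27 to 0.13). Its neighbour Il1b, the pyrogen released by inflammasomes, had 246 in the GW4064 library and 192 in the vehicle library (-0.15, -0.43 to 0.13). Il18, which induces interferon gamma and is made by Kupffer cells, had 244 in the GW4064 library and 202 in the vehicle library (-0.24, -0.51 to 0.04). Il33, the alarmin whose promoter window holds the Foxa letters, had 555 in the GW4064 library and 451 in the vehicle library (-0.21, -0.39 to -0.03), and 0 of these 4 loci were called.

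The cytokines that signal through the common gamma chain, which include Il4 above, lay on both sides of 0. Il9, a mast cell and T cell growth factor, had 197 local contacts in the GW4064 library and 153 in the vehicle library (log2 ratio -0.14, -0.46 to 0.17). Il7, the lymphocyte survival factor, had the highest ratio of all 56 loci, with 628 local contacts in the GW4064 library and 380 in the vehicle library (log2 ratio 0.22, 0.03 to 0.40). Il2, the T cell growth factor, had 308 in the GW4064 library and 193 in the vehicle library (0.17, -0.10 to 0.43). Il21, made by helper T cells 100 kb from Il2, had 331 in the GW4064 library and 230 in the vehicle library (0.02, -0.23 to 0.27), and Il15, which sustains NK cells and is transpresented by liver macrophages, had 1141 in the GW4064 library and 753 in the vehicle library over its 3 bins (0.09, -0.04 to 0.23). Of these 6 loci, that of Il4 and Il13 included, 0 met the call rule. Il6, the hepatocyte acute phase inducer, had 242 in the GW4064 library and 152 in the vehicle library (0.16, -0.14 to 0.46). Il34, a ligand of the Csf1 receptor on macrophages, had 515 in the GW4064 library and 431 in the vehicle library (-0.25, -0.44 to -0.06), and Il16, a T cell attractant, had 692 in the GW4064 library and 528 in the vehicle library (-0.12, -0.28 to 0.05).

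Gene density moved with the local ratio and is therefore given beside it. Density was the number of protein-coding genes in the 21 bins centred on a locus. Over all protein-coding loci the median log2 ratio was 0.05 in the decile of loci with the fewest neighbours and -0.44 in the decile with the most. Among members with at most 15 genes around them, 3 of 24 were called lower (12.5%), against 12.8% of all such loci. Among those with more than 15, 9 of 32 were called lower (28.1%), against 47.2% of all such loci. Il23a, Il27, Il11 and Cxcl16 had between 46 and 50 genes around them and ratios between -0.46 and -0.32, while Il7, Il15, Cxcl12 and Il12b had at most 4 and ratios between -0.34 and 0.22.

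Once the median of loci of like density was subtracted, 4 members were called lower (Il12b, Il25, Cxcl12 and Il17c) and 1 higher (Ccl3), where 8.73% of all protein-coding loci were called lower and 9.62% higher. The median of the members was then 0.05, with 23 loci below 0 and 33 above it. By family this median was 0.03 over the interleukin, 0.11 over the Cxcl and 0.12 over the Ccl loci. The median density was 15.0 genes over the interleukin, 16.5 over the Cxcl and 24.5 over the Ccl loci. In the chromosome 5 clusters 5 of 6 loci were above 0, with a median of 0.21. The bins of Cxcl15 include that of Cxcl5 and Cxcl3, and neighbouring bins share contacts, so these 6 loci are not separate values. Cxcl5 with Cxcl3 lay 0.30 above loci of like density (0.05 to 0.55) and Cxcl2 0.28 (0.01 to 0.55), while Cxcl1 lay at -0.06 (-0.31 to 0.19). Whether density or something that goes with it accounts for the difference between the libraries was not tested.

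**Figure D2:**
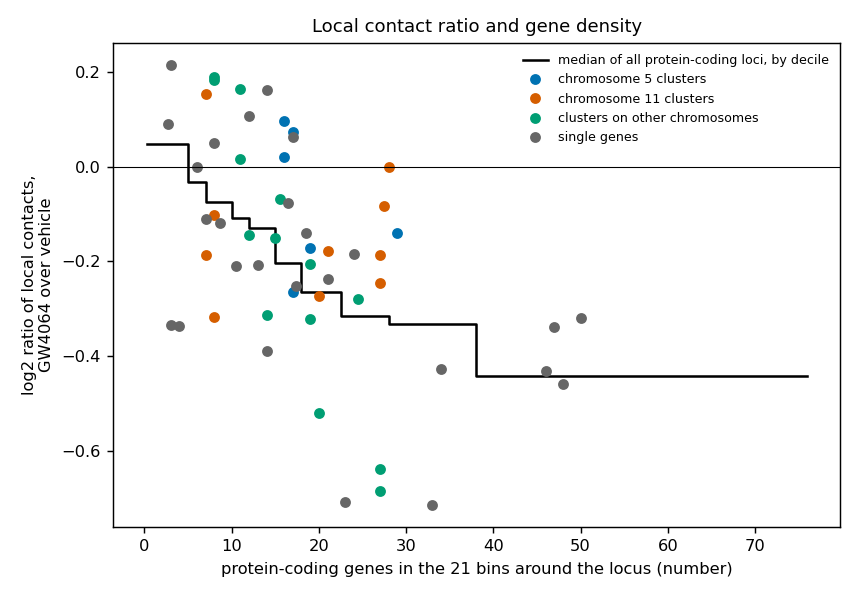
Log2 ratio of local contacts, GW4064 over vehicle, against the number of protein-coding genes in the 21 bins around each of 56 member loci, coloured by cluster group. The stepped line is the median of all protein-coding loci in each decile of density, which runs between 0.05 and -0.44. Il25 and Il17c (both -0.71) lie far below that line and 5 of 6 points of the chromosome 5 clusters lie above it. These 6 points are not separate values, since Cxcl15 shares a bin with Cxcl5 and Cxcl3.

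Contacts within a single bin, a separate set of counts that holds the shortest ligations, gave a like picture. Of 54 member loci with at least 100 such contacts, 13 were called lower (24.1%) and 1 higher (1.85%), where 24.5% of all protein-coding loci were called lower and 1.88% higher. At 1.5-fold 3 were called lower and 0 higher, where 8.42% of all loci were called lower and 0.171% higher. The median log2 ratio was -0.13 over the members and -0.15 over all. Il2 was the locus called higher, with 185 contacts within its bin in the GW4064 library and 97 in the vehicle library (log2 ratio 0.46, 0.10 to 0.83). Il25 had the lowest ratio, with 99 in the GW4064 library and 131 in the vehicle library (-0.87, -1.26 to -0.48). Il23a had 109 in the GW4064 library and 134 in the vehicle library (-0.77, -1.14 to -0.39), and Il25, Il23a, Il17c, Il17b, Il11 and Cxcl17 were called lower in both sets of counts. The sets did not always go together, since Cxcl9 and Cxcl10 had 107 contacts within their bin in the GW4064 library and 103 in the vehicle library (-0.41, -0.82 to -0.01) and were called lower there alone.

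The level of contacts within a bin, per bin and relative to the mean autosomal bin of the same library, placed most members near the genome mean. Its median over the 60 loci was 0.90 in the GW4064 library and 0.92 in the vehicle library, against 0.85 in the GW4064 library and 0.95 in the vehicle library over all protein-coding loci. The highest level was that of Ccl11, the eosinophil attractant eotaxin, at 1.43 in the GW4064 library and 1.56 in the vehicle library. That exceeded 96.7% of protein-coding loci in the GW4064 library and 99.2% in the vehicle library. Taking the mean of both libraries, Il5 came next with 1.10 in the GW4064 library and 1.37 in the vehicle library, and then Il12b with 1.15 in the GW4064 library and 1.30 in the vehicle library. The lowest with enough local contacts were Il22, at 0.23 in the GW4064 library and 0.30 in the vehicle library, and Ccl27a, at 0.29 in the GW4064 library and 0.47 in the vehicle library. Il4 with Il13 came next at 0.43 in the GW4064 library and 0.62 in the vehicle library, 100 kb from Il5, so the type 2 cluster held both a high and a low bin in both libraries. These levels also depend on how many reads map to and cut sites lie in a bin, which was not measured here.

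**Figure D3:**
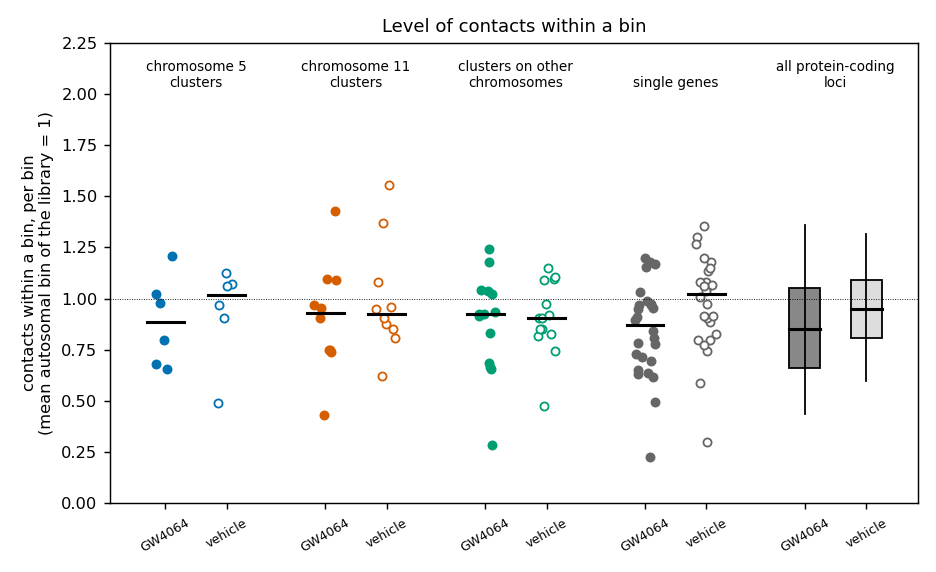
Contacts within a bin, per bin, relative to the mean autosomal bin of the same library, for the member loci with at least 100 local contacts (filled, GW4064; open, vehicle). Black bars are medians of the points, and the boxes at the right give the quartiles, with whiskers at the 5th and 95th percentiles, of all protein-coding loci; the points run between 0.23 and 1.43 in the GW4064 library and between 0.30 and 1.56 in the vehicle library.

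At longer range the members were again lower about as often as other genes. Of contacts over 1 Mb apart on the same chromosome, 16 of 56 loci were called lower (28.6%) and 0 higher, where 28.6% of all protein-coding loci were called lower and 0.594% higher. The median was -0.22 over the members and -0.18 over all. Of contacts between chromosomes, 10 of 56 loci were called lower (17.9%) and 0 higher, where 15.5% of all loci were called lower and 1.53% higher. The median was -0.16 over the members and -0.10 over all. Il25, Il17c, Il27, Il11 and Ccl17 were called lower in local contacts, over 1 Mb and between chromosomes alike. The share of all contacts of member bins that joined different chromosomes was 23.6% in the GW4064 library (exact Clopper-Pearson 95% interval 23.3% to 23.9%) and 27.8% in the vehicle library (27.4% to 28.2%). All autosomal bins had 21.2% in the GW4064 library and 25.5% in the vehicle library, so the members lay about as far above the genome in both. All protein-coding loci had 22.5% in the GW4064 library and 26.7% in the vehicle library, so genes in general shared part of that difference. For contacts of 100 to 500 kb the members had 14.5% in the GW4064 library and 12.8% in the vehicle library, and all autosomal bins had 13.7% in the GW4064 library and 11.8% in the vehicle library.

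**Figure D4:**
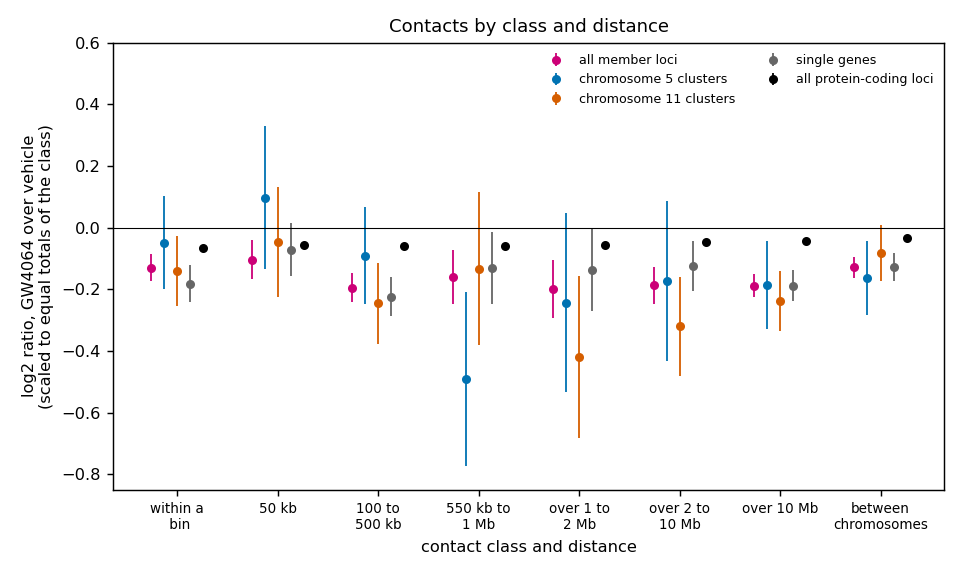
Log2 ratio of contacts, GW4064 over vehicle, by contact class and distance, each scaled to equal totals of its class over all bins. Points pool the bins of a set and bars are exact 95% counting intervals; all member loci lie below 0 in each of the 8 classes, and below the point of all protein-coding loci, a sum in which long genes weigh more.

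Members on different chromosomes shared few contacts, at or above the number expected. Between all pairs of member loci on different chromosomes there were 11 contacts in the GW4064 library, where 8.47 would follow from the interchromosomal totals of the bins, a ratio of 1.30 (exact Poisson interval 0.65 to 2.32). In the vehicle library there were 17 against 9.66, a ratio of 1.76 (1.03 to 2.82). At such counts a difference between the libraries was not detectable. The expected numbers do not allow for the compartments described next, and no other set of genes was counted beside the members.

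Compartments, the division of chromosomes into an active A and an inactive B type, were taken from the leading eigenvector of contacts in bins of 250 kb. Its sign was set on each chromosome so that A went with higher gene density. Loci inside the same 250 kb bin share its value, so neighbouring loci of a cluster are not separate values. Of the 56 member loci with a value, 45 were in A in the GW4064 library (80.4%) and 44 in the vehicle library (78.6%). All protein-coding loci had 71.7% in A in the GW4064 library and 71.2% in the vehicle library, and all autosomal bins had 42.6% in the GW4064 library and 42.0% in the vehicle library. The chromosome 5 clusters were in A at 6 of 6 loci. The Ccl2 to Ccl1 cluster lay in B in both libraries, with an eigenvector value of -0.47 in the GW4064 library and -0.42 in the vehicle library, whereas the Ccl5 to Ccl4 cluster lay in A with 0.79 in the GW4064 library and 0.81 in the vehicle library. The sign differed between the libraries at 3 loci (5.36%, against 3.51% of all), Il15, Il16 and Il22, with values close to 0. Il15 had 0.28 in the GW4064 library and -0.05 in the vehicle library, Il22 had 0.14 in the GW4064 library and -0.01 in the vehicle library, and Il16 had -0.04 in the GW4064 library and 0.00 in the vehicle library.

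The bins of the Ccl2 to Ccl1 cluster held more contacts with each other than their distance gave. They had 233 in the GW4064 library, 1.30 times the number expected from distance (exact Poisson interval 1.14 to 1.48), and 176 in the vehicle library, 1.37 times (1.18 to 1.59). The Ccl5 to Ccl4 cluster, with 4 bins as well, had 187 in the GW4064 library (1.04, 0.90 to 1.20) and 133 in the vehicle library (1.04, 0.87 to 1.23), no more than its distance alone gave. With the local contacts of both bins allowed for as well, that cluster had 1.27 times expected in the GW4064 library (1.10 to 1.47). In the vehicle library it had 1.05 times (0.883 to 1.249). The Ccl2 to Ccl1 cluster then had 1.66 times in the GW4064 library (1.45 to 1.89) and 1.56 times in the vehicle library (1.34 to 1.81). Between these clusters, whose first bins lie 1.5 Mb apart, there were 9 contacts in the GW4064 library (0.52 of expected from distance, 0.24 to 0.99) and 7 in the vehicle library (0.54, 0.22 to 1.12). Neither library thus showed an excess of contacts between the Ccl clusters.

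The neutrophil chemokine cluster had 212 contacts between its bins in the GW4064 library, 1.18 times expected (1.03 to 1.35), and 123 in the vehicle library, 0.96 times (0.80 to 1.15). The log2 ratio between the libraries was 0.30 (-0.03 to 0.63), and 0.38 (0.05 to 0.71) when the local contacts of both bins were allowed for as well. With that allowance the cluster had 1.04 times expected in the GW4064 library (0.90 to 1.19) and 0.80 times in the vehicle library (0.66 to 0.95). The cluster thus showed no excess in the GW4064 library on that scale. Only 4 contacts in the GW4064 library and 2 in the vehicle library joined it to the bin of Cxcl9 and Cxcl10. The map of the region, seen before the flanks were counted, shows the cluster inside a block that extends toward Rassf6. With the 200 kb at lower coordinates, on the side of Rassf6 and the end of Afm, an albumin family gene, the cluster had 363 contacts in the GW4064 library, 1.92 times expected (1.73 to 2.13), and 252 in the vehicle library, 1.92 times (1.69 to 2.18). With the 200 kb at higher coordinates, which hold Mthfd2l and the growth factor genes Epgn, Ereg and Areg, it had 116 in the GW4064 library (0.61, 0.51 to 0.74) and 73 in the vehicle library (0.56, 0.44 to 0.70). Against distance alone, the lower flank thus exceeded the higher one in both libraries, with intervals far apart. The local contacts of the flank bins were not allowed for, so unequal coverage of the flanks remains in these values. With the 3 bins of Alb to Afm, the last of which is the outermost bin of the lower flank, the cluster had no such excess. It had 60 contacts with them in the GW4064 library (0.84 of expected from distance, 0.64 to 1.09) and 36 in the vehicle library (0.73, 0.51 to 1.02). With local contacts of both bins allowed for, these were 0.68 of expected in the GW4064 library (0.52 to 0.88) and 0.49 in the vehicle library (0.35 to 0.68).

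Other clusters were also set unevenly between their flanks. The Ccl2 to Ccl1 cluster had 0.87 times the expected contacts with its lower flank in the GW4064 library and 1.14 times in the vehicle library, but with its higher flank, which holds Tmem132e, 0.45 times in the GW4064 library and 0.50 times in the vehicle library. Il2 with Il21 had 1.78 times expected with the lower flank in the GW4064 library (1.55 to 2.04) and 1.64 times in the vehicle library (1.37 to 1.94), and with the higher one 0.92 times in the GW4064 library and 0.91 times in the vehicle library. Il17a with Il17f had 1.21 times with the lower flank in the GW4064 library and 1.22 times in the vehicle library, and with the higher one 0.69 times in the GW4064 library and 0.55 times in the vehicle library. These clusters, too, had the fuller flank on the same side in both libraries, again against distance alone and with flank coverage not allowed for.

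**Figure D5:**
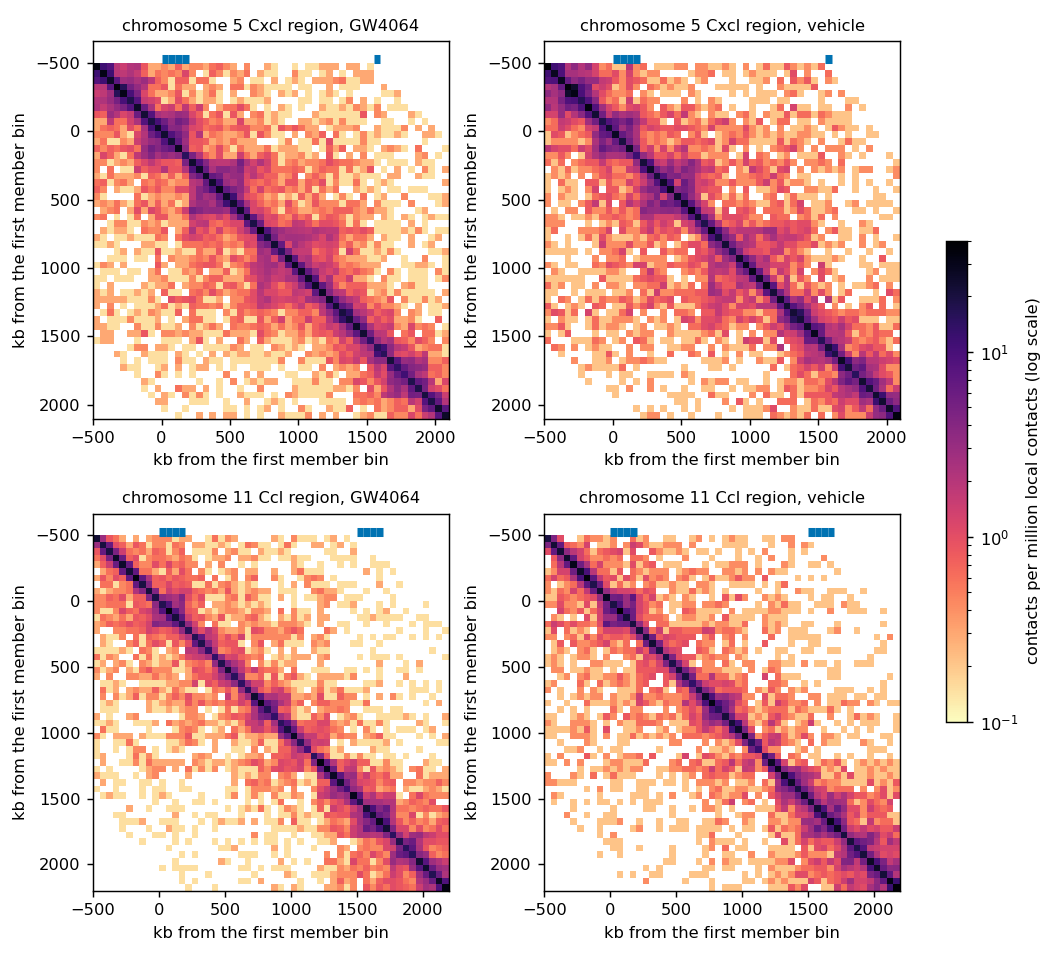
Contacts between bins of 50 kb up to 2 Mb apart, scaled to the local contacts of the library (log colour scale), around the Cxcl clusters of chromosome 5 and the Ccl clusters of chromosome 11, GW4064 at the left and vehicle at the right. Axes give the distance in kb of each bin to the first member bin and blue marks are member bins; in both libraries the first Cxcl cluster joins a block at lower coordinates and few contacts lie between the clusters of a chromosome.

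Ccl22 and Ccl17 gave a value that hung on the scale. Contacts between their 3 bins numbered 94 in the GW4064 library, 0.89 times expected from distance (0.72 to 1.08), and 100 in the vehicle library, 1.31 times (1.07 to 1.60), a log2 ratio of -0.57 (-0.99 to -0.15). With the lower local contacts of these bins allowed for, the ratio turned to 0.33 (-0.09 to 0.75). The cause of that turn was not tested.

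Partner bins with the most contacts for their distance and local coverage were chosen as the highest and are given as a description. A bin could be a partner only when its GW4064 and vehicle counts summed to 20 or more. The mean count per pair of bins was 17.0 in the GW4064 library and 11.6 in the vehicle library at 100 kb. At 500 kb it was 3.7 in the GW4064 library and 2.6 in the vehicle library. The minimum thus favoured near bins, and how near the partners lay cannot be read as a result. Il4, Il13 and Il5 met the bin of Slc22a5, a carnitine transporter gene, 150 kb away, with 44 contacts in the GW4064 library (2.74 times expected) and 30 in the vehicle library (1.79 times). Cxcl14 with Il9 met that of Smad5, a BMP signal transducer, with 20 in the GW4064 library (4.88 times) and 10 in the vehicle library (2.22 times). Ccl28, a mucosal chemokine, met the bin of Nim1k and Zfp131 at 100 kb with 41 in the GW4064 library (3.73 times) and 30 in the vehicle library (4.53 times). The first such partner of the neutrophil cluster was the bin of Rchy1 and Odaph, 1050 kb away, with 18 in the GW4064 library (2.45, 1.45 to 3.87) and 10 in the vehicle library (1.88, 0.90 to 3.46).

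Chromosome 4 carries a run of members that these data hardly cover. Ccl27a, Ccl21d, Ccl21b, Ccl27b, Ccl19 and Ccl21a, skin- and lymph node-homing chemokines whose genes are duplicated there in near-identical copies, lie in a span of 21 bins (41750001 to 42800000, mm10), of which 18 had under 10 contacts in both libraries. The 4 loci under 100 local contacts were all in this span, where Ccl21d had 1 in each library and the others 0. Its first bin, that of Ccl27a, had 69 local contacts in the GW4064 library and 78 in the vehicle library (log2 ratio -0.69, -1.17 to -0.20) at a low level, and its call is uncertain for that reason.

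The receptors and the ligands that the symbol rule leaves out were read in the same way, beside 29.2% of all protein-coding loci called lower, 1.37% higher and a median of -0.15. Of 58 receptor genes all matched, at 55 loci, and 20 were called lower (36.4%) and 0 higher, with a median of -0.24 and a median density of 13 genes. Of 20 other ligands and antagonists 19 matched, at 18 loci, and 9 of these 18 were called lower and 0 higher, with a median of -0.31 and a median density of 24.0 genes. The lowest were Lta and Tnf, neighbouring cytokine genes of the major histocompatibility region. Lta had 133 local contacts in the GW4064 library and 205 in the vehicle library (-1.13, -1.46 to -0.81), and Tnf had 231 in the GW4064 library and 330 in the vehicle library (-1.02, -1.27 to -0.78), with 64 or more genes in the 21 bins around each. The highest were Il7r, the receptor of Il7, with 281 in the GW4064 library and 164 in the vehicle library (0.27, -0.02 to 0.55), and Il20ra, a receptor chain for Il19, Il20 and Il24, with 588 in the GW4064 library and 345 in the vehicle library (0.26, 0.07 to 0.46). The difference between these lists and the members was not tested.

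Marker loci of cell types were counted as well, though contacts do not measure which cells were present, and their densities differed widely. Of all protein-coding loci, 29.2% were called lower. Of 9 hepatocyte loci 6 were called lower (median -0.42, median density 15.0 genes). Their level within the bin ran between 0.46 and 1.34 in the GW4064 library, with a median of 1.00. In the vehicle library it ran between 0.83 and 1.69, with a median of 1.08. Of 5 Kupffer cell loci 0 were called lower (median -0.08, density 16.0) and of 5 T and B cell loci 4 (median -0.40, density 36.0). Of 4 endothelial loci 1 was called lower (median -0.18, density 16.1) and of 5 neuronal loci 1 (median -0.03, density 4.0). Kupffer cell loci had a median level within the bin of 1.01 in the GW4064 library and 1.05 in the vehicle library. T and B cell loci had 0.88 in the GW4064 library and 0.99 in the vehicle library. Endothelial loci had 0.76 in the GW4064 library and 0.98 in the vehicle library, and neuronal loci 1.19 and 1.04. Neuronal loci thus had the highest median in the GW4064 library and hepatocyte loci in the vehicle library. The part of cell composition in any value above was not tested.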

How the data were processed

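Foxa2 HiChIP of mouse liver gave 1 GW4064 and 1 vehicle library. Per the submitters' processing notes, the authors used HiC-Pro and Bowtie2 2.2.9 on mm10; read filters and duplicate handling are not stated. The deposited values are raw counts of contacts per pair of 50 kb bins, with no normalization, so coverage, mappability and precipitation strength remain in them. Gene positions are those of RefSeq for GRCm38.p6, the same build.

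From the counts, local ratios were scaled to equal local totals and given exact conditional binomial 95% intervals; clusters are members with gaps of at most 500 kb. Loci with under 100 contacts got no call. The genes named are 37 listed by symbol, the 5 highest and 5 lowest local ratios, the 3 highest and 3 lowest levels, and the 2 highest and 2 lowest of the other lists; further genes in the text were chosen after their values were seen. Members and lists were chosen with earlier results of these data known. Cxcl11 is no protein-coding gene in RefSeq and is not a member. Scripts were tested on simulated data. Software was scipy 1.17.1, numpy 2.4.6, matplotlib 3.10.9 and pandas 2.3.3 under Python 3.11.15.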

Additional observations from a re-analysis of the deposited data

How the results depend on the processing

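Counts of 5 lower and 3 higher members came from scaling to equal total contacts and equally from scaling to the median protein-coding locus, both of which moved all ratios by 0.15, with 15.7% of all loci lower and 8.14% higher. Subtracting the median of like gene density gave 4 lower, 1 higher and a median of 0.046. At 1.5-fold 4 members were lower in local contacts (9.48% of all loci), and within a bin 3 were lower (8.42%) and 0 higher; with the interval alone 19 were lower (39.7%) and 1 higher (5.55%). At 1.5-fold 8 of 55 receptor loci and 4 of 18 other ligand loci were lower, beside the same 9.48%. Contacts up to 500 kb or 2 Mb, other minimums, merged loci and neighbour bins left the local counts within 1.5 times the main ones.

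Of cluster contacts, the log2 ratio of Ccl22 with Ccl17 reversed to 0.17 at distances of at least 2 bins and to 0.33 with local contacts allowed for. Il24 to Il10 moved to 0.68 with local contacts allowed for, Ccl2 to Ccl1 to -0.49 and Il1a with Il1b to 0.62 at distances of at least 2 bins; the cause was not tested.

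Of 355 values of 33 named loci over 11 settings, 330 kept their side of the call rule and 6 lost the call. A further 18 gained a call in the same direction and 1 gained a call in the opposite direction. A locus that stayed without a call counted as kept even where its ratio changed sign. Of the values of loci called in the main setting, 0 reversed. With 1 library per group none was left out. No paired analysis was possible because each group holds 1 library. Depth limits single loci, since 56 members had a median of 244.5 local contacts in the GW4064 library and 194 in the vehicle library. Differences between the libraries and an effect of the treatment cannot be told apart.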
